A study of Mus musculus with 860 samples.

Results

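The genes described here were 8 enzymes of serine and one-carbon synthesis and of branched-chain amino acid breakdown, Phgdh, Psat1, Psph, Shmt1, Shmt2, Mthfd1, Mthfd2 and Bcat1, taken by name out of 46078 gene rows. All 8 were found in the count table by their Ensembl identifiers. They had been picked because of earlier results on these same cells, so their levels are given as a description, and no test was run on them.

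Serine is made in the cell from the glycolytic intermediate 3-phosphoglycerate. PHGDH oxidises it, PSAT1 adds the amino group and PSPH removes the phosphate. The SHMT enzymes then move a carbon from serine to tetrahydrofolate, giving glycine, and the MTHFD enzymes convert the folate-bound carbon into the forms used for purine and thymidylate synthesis. SHMT1 and MTHFD1 work in the cytosol, and SHMT2 and MTHFD2 in mitochondria. BCAT1 is the cytosolic aminotransferase of leucine, isoleucine and valine. These pathways supply nucleotides to dividing cells.

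The cells came from the aorta-gonad-mesonephros region (AGM), where the first haematopoietic stem cells (HSC) arise, of embryos that carry a tomato reporter in the Gfi1 gene (strain label CD1/Gf1+). No treatment was given. Cells that carry the endothelial surface protein CD31 were index sorted into wells as haemogenic endothelium (HE, cKIT- GFI1+), as GFI1+ cells of the intra-aortic haematopoietic clusters (IAHC, cKIT+) and as GFI1- IAHC, at embryonic days E10.5 and E11.5, and each cell gave 1 Smart-Seq2 library. The batches were GL53, GL58, GL69 and GL78, and of the 860 cells the 775 that the authors kept were used. Of these, 14.06% were HE and 14.97% GFI1+ IAHC of E10.5, and 22.19% were HE, 30.97% GFI1+ IAHC and 17.42% GFI1- IAHC of E11.5. Only 3 cells were GFI1- IAHC of E10.5, too few to compare.

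A kept cell had between 134284 and 2296823 counts, with a median of 727732, and the median of a group lay between 573567 and 879928. No animal was named in the labels, so a group was 1 sample. Cells were therefore summed within a group and batch, and levels are given as CPM, a gene's counts scaled to a fixed total per pool. Intervals on a level are exact 95% Poisson intervals that cover counting error only, since reads of an amplified library are not independent molecules, and the SD over batches holds technical differences as well. The endothelial gene Pecam1, which codes for CD31, stood at 405 to 1596 CPM in every group and batch. Kit stood at 85.1 to 100.1 CPM in E11.5 HE and at 166.6 to 207.3 CPM in E11.5 GFI1+ IAHC. In E11.5 GFI1- IAHC, also sorted as cKIT+, Kit stood at 91.8 CPM in GL53, below HE of that batch, and at 131.04 in GL78. Gfi1 had 0 reads in E11.5 GFI1- IAHC but also in at least 1 batch of E11.5 HE and of E11.5 GFI1+ IAHC. No plate held both stages (0 plates), so stage and plate cannot be told apart.

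In the mouse genome (GRCm38, GENCODE M21) the genes lie apart from one another on 7 chromosomes. Phgdh (ENSMUSG00000053398) is at chr3:98313170-98339990, Psat1 (ENSMUSG00000024640) at chr19:15904678-15947337 and Psph (ENSMUSG00000029446) at chr5:129765558-129787449. Shmt1 (ENSMUSG00000020534) is at chr11:60788104-60811718 and Shmt2 (ENSMUSG00000025403) at chr10:127517123-127522444. Mthfd1 (ENSMUSG00000021048) is at chr12:76255298-76319803, Mthfd2 (ENSMUSG00000005667) at chr6:83305691-83325908 and Bcat1 (ENSMUSG00000030268) at chr6:144993835-145076184. Mthfd1 is on the plus strand and the others are on the minus strand. Exons of Psph, Shmt1, Shmt2, Mthfd1 and Bcat1 share 32 to 452 bases with a gene on the opposite strand (Cct6a, Smcr8, Ndufa4l2, Gm47525 and Gm26666). Whether counting used the strand is not given in the sources used here, so reads of these stretches could belong to either gene.

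Promoters are shown here for the 4 genes called lower in cluster 4 than in clusters 0, 1, 3 and 5. RefSeq promoter windows (GRCm38.p6), read here over the 250 bases before a RefSeq transcript start, were found for all 8 genes, 10 windows in all. Both strands were searched for the CCAAT box (CCAAT), the GC box (GGGCGG), the E box bound by MYC family factors (CACGTG) and the amino acid response element bound by ATF4 (TGATGNAA). The stretches are printed, without any base of a GENCODE exon of the gene, 5′ to 3′ on the gene's own strand, with CCAAT and GC box matches in capitals, for Phgdh (chr3:98339991-98340219), Psat1 (chr19:15925060-15925309), Shmt1 (chr11:60811266-60811466) and Mthfd2 (chr6:83317607-83317854). The Phgdh stretch lies before the gene span given above. Those of Psat1, Shmt1 and Mthfd2 lie inside it, in an intron of a longer GENCODE transcript that starts farther upstream.
Phgdh: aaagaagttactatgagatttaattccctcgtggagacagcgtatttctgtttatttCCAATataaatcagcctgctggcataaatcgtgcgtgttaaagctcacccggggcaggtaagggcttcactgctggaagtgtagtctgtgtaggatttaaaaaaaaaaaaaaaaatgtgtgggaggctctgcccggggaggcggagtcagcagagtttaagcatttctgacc
Psat1: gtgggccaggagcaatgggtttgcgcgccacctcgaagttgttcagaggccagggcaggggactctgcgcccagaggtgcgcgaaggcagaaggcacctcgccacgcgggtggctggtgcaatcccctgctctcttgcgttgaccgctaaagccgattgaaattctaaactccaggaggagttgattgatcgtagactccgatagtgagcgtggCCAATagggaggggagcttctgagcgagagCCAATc
Shmt1: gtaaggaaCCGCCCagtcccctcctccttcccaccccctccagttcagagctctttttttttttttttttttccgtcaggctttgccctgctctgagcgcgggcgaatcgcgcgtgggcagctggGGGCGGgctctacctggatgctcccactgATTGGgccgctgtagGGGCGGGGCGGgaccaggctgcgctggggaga
Mthfd2: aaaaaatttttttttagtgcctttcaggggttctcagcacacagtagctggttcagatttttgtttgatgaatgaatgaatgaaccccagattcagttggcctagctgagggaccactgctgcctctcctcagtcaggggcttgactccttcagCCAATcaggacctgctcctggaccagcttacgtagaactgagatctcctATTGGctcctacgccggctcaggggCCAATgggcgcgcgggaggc

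A CCAAT box was present in 7 of the 10 windows, 1 for each gene except Shmt2, beside 33.8% of all 32851 windows of the annotation. A GC box was present in 4 windows, beside 32.7% of all. The printed Mthfd2 stretch held 3 CCAAT boxes and the Psat1 stretch 2, and the Shmt1 stretch held 1 CCAAT box and 4 GC boxes of which a pair overlaps. Neither the E box (6.02% of all windows) nor the amino acid response element (3.45%) was present in these windows, which says only that these letters are not there.

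Over all kept cells, the mitochondrial Shmt2 had the highest level per length, 158.2 TPM (counts divided by exon length and scaled to the same total), followed by Phgdh at 126.8, Psat1 at 75.7, Mthfd1 at 65.4, Shmt1 at 48.0, Mthfd2 at 32.9 and Psph at 12.9 TPM. Bcat1 was the lowest at 2.85 TPM. A read of Shmt2 was found in 82.1% of cells, of Psat1 in 70.2%, of Phgdh in 49.7% and of Bcat1 in 14.6%. Phgdh thus had the second highest level in the set but was seen in fewer cells than Psat1, Shmt1 (52.1%) and Mthfd1 (67.2%), and its highest level in a single cell was 1612 CPM.

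The first comparison asked how the genes varied with population and stage. Phgdh had the widest range in CPM. It stood at 238.1 CPM in GL69 and 334.6 in GL78 in E10.5 GFI1+ IAHC, and at 102.5 in GL58 and 118.5 in GL78 in E10.5 HE. In E11.5 GFI1+ IAHC it stood at 64.1, 42.3 and 99.7 CPM in GL53, GL58 and GL78, and in E11.5 HE at 15.7, 51.8 and 26.4 CPM. E11.5 GFI1- IAHC gave 57.8 in GL53 and 131.4 in GL78. The 2 pools of E10.5 GFI1+ IAHC were thus above all others, and no pool of E11.5 HE reached any pool of E10.5. In GL78, the batch that holds all 5 groups, the order from high to low was GFI1+ IAHC at E10.5, GFI1- IAHC at E11.5, HE at E10.5, then GFI1+ IAHC and HE at E11.5, and no neighbours overlapped in their counting intervals.

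The share of cells with a Phgdh read had the same order as the means over batches, from 286.4 ± 68.2 CPM (SD, 2 batches) in E10.5 GFI1+ IAHC to 31.3 ± 18.5 CPM (SD, 3 batches) in E11.5 HE. With each cell thinned to 50000 counts, Phgdh was detected in 83.6% of E10.5 GFI1+ IAHC (exact 95% binomial interval 75.6 to 89.8%) and 53.2% of E10.5 HE (43.4 to 62.8%). At E11.5 it was detected in 45.9% of GFI1- IAHC (37.3 to 54.7%), 39.2% of GFI1+ IAHC (33.0 to 45.7%) and 20.9% of HE (15.1 to 27.8%). In a summed level, fewer expressing cells and less RNA per cell cannot be told apart, and here the share of cells moved with the level.

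Psat1, the aminotransferase of the second step, stood at 247.8 CPM in GL69 and 171.4 in GL78 in E10.5 GFI1+ IAHC. This group was the highest within GL78, while GL69 held no other group. In the other pools Psat1 spanned 82.1 to 182.8 CPM, thus reaching above 171.4, except in E11.5 HE of GL53, at 68.4. In GL78 its levels in the E11.5 groups were 86.9, 84.5 and 82.1 CPM, and neighbours in that order overlapped in their counting intervals. Psph, the phosphatase of the last step, was low throughout and lay between 11.4 and 29.96 CPM. The serine pathway genes therefore did not move by like amounts.

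Shmt1 ranged from 23.4 CPM in E11.5 HE of GL78 to 109.8 in E11.5 GFI1+ IAHC of GL58, whereas Shmt2 stayed between 118.9 and 254.03 CPM. Mthfd1, which carries the cytosolic folate interconversions, spanned 53.8 CPM in E11.5 HE of GL53 to 176.7 in E10.5 GFI1+ IAHC of GL69. Its mitochondrial counterpart Mthfd2 spanned 19.4 to 90.6 CPM in the same 2 pools. Bcat1 stood at 16.7 and 17.7 CPM in E10.5 HE and at 39.8 and 12.8 in E10.5 GFI1+ IAHC, but at 0.578, 1.60 and 2.38 in E11.5 HE and at 2.20 to 7.62 in the E11.5 IAHC pools. Every E10.5 pool was above every E11.5 pool for Bcat1, and it was detected in 20.2% and 22.4% of E10.5 HE and GFI1+ IAHC against 1.74% of E11.5 HE at 50000 counts.

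**Figure D1:**
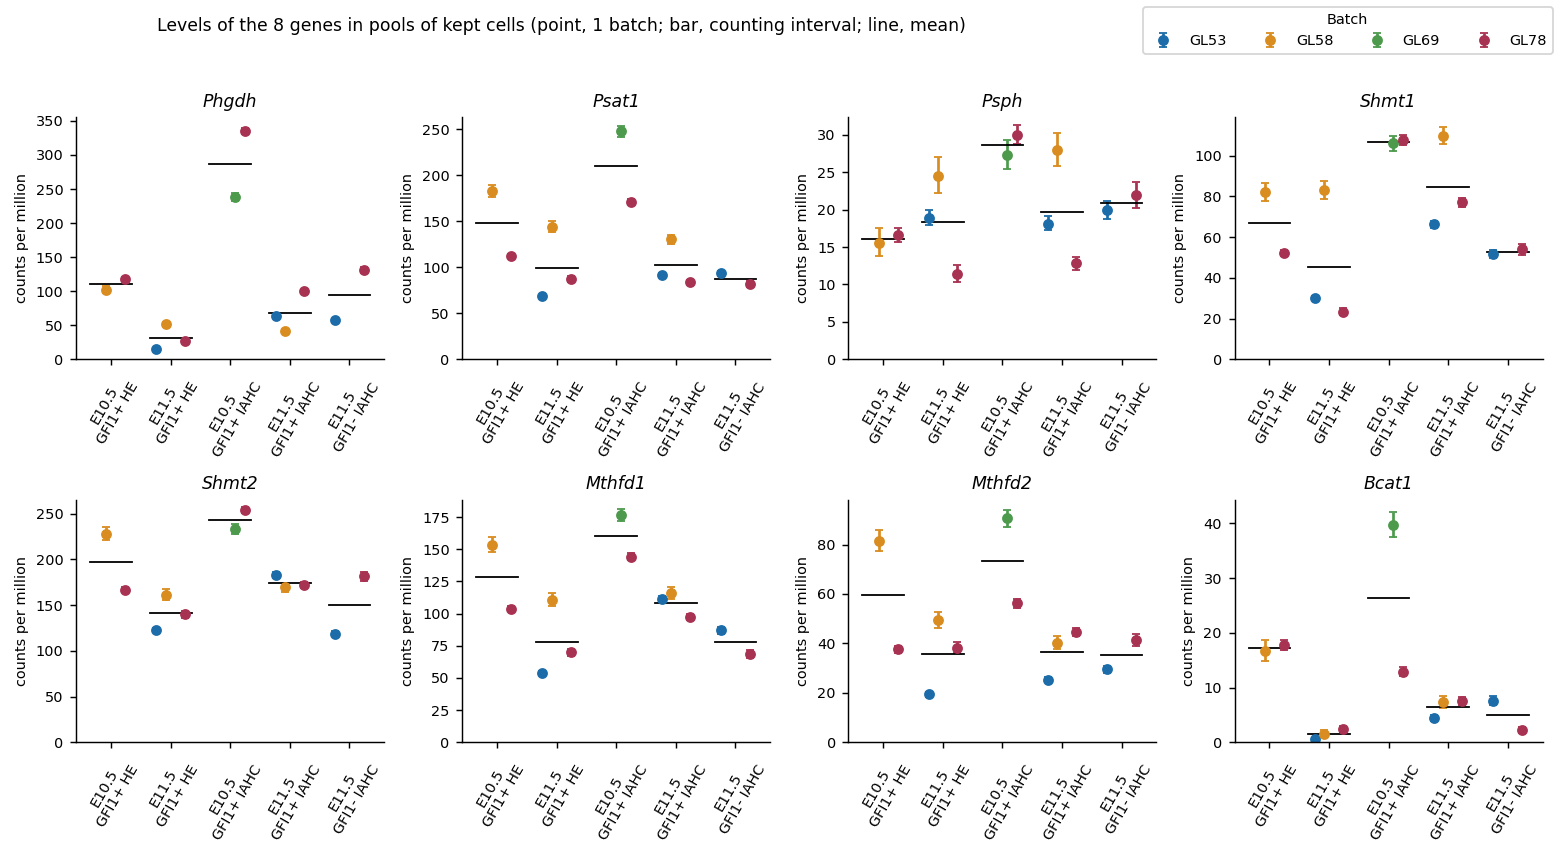
Level of each of the 8 genes (vertical axis, CPM of summed counts) in the 5 groups (horizontal axis). Points are batches, bars are 95% counting intervals and the short line is the mean over batches; Phgdh was highest in E10.5 GFI1+ IAHC at 238.1 and 334.6 CPM and lowest in E11.5 HE at 15.7 to 51.8 CPM.

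Counted per cell, more of the genes were found together in E10.5 GFI1+ IAHC than in the other groups. At 50000 counts the median cell there had a read of 6 of the 8 genes, against 5 in HE of the same stage. At E11.5 it had 4 in GFI1+ IAHC, 3 in GFI1- IAHC and 2 in HE. Phgdh, Psat1 and Psph were all detected in 45.7% of E10.5 GFI1+ IAHC, and 22.9% of E10.5 HE, and at E11.5 in 18.5% of GFI1- IAHC, 10% of GFI1+ IAHC and 5.23% of HE.

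Differences were then taken as log2 ratios of CPM, with 1 CPM added to each side, within each batch that had at least 10 cells on both sides, and averaged. A gene was called higher or lower when it reached 10 CPM on either side and was at least 2-fold apart, one way, in each batch. The median of the 8 genes is that of their averaged ratios, and the SD beside it is that of the medians within batches. Since the genes were chosen on these cells, nothing is read from a share called that is above or below that of all genes.

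HE was compared with GFI1+ IAHC at both stages, the step at which cells leave the endothelium. At E11.5 the median log2 ratio of the 8 genes, HE over GFI1+ IAHC, was −0.42 ± 0.37 (SD, 3 batches), with −0.80 in GL53, −0.07 in GL58 and −0.38 in GL78. No member was called out of 7 that reached 10 CPM, against 1.83% of all genes measured. Shmt1 had a log2 ratio of −1.06 ± 0.64 and was below 0 in every batch, as were Shmt2, Mthfd1 and Bcat1. Phgdh had −1.19 ± 1.27, since in GL58, with 19 HE cells, it was higher in HE (0.29). Without GL58 it was −1.92 and 2 members were called lower, as were 2.54% of all genes. Psat1, Psph and Mthfd2 lay within 0.10 of 0 on average.

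At E10.5, where only GL78 held enough cells of both, the median was −0.60. Phgdh (−1.49) and Shmt1 (−1.03) were called lower in HE, 2 of 8, against 1.99% of all genes lower and 5.47% higher. Psph stood at −0.81, Psat1 and Shmt2 at −0.60, Mthfd2 at −0.57 and Mthfd1 at −0.47, and Bcat1 at 0.44. Markers of other cells moved with this comparison. All 10 measured megakaryocyte markers were called higher in HE, with a summed level of 4194 against 167.6 CPM, and so were all 5 erythroid markers, at 632 against 23.4 CPM. Without clusters 6 to 10, which include the cells richest in megakaryocyte markers, the median was −0.54.

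The ratio at E10.5 also moved with the clusters. Cluster 2 held 41.4% of the E10.5 GFI1+ IAHC of GL78 and 9.9% of the HE, and cluster 4 held 2.3% and 28.6%. Within clusters 0, 1, 3 and 5 alone, the median was −0.03, Phgdh was at −0.13 and Shmt1 at −0.19, and no member was called, as against 1.85% of all genes lower and 1.26% higher. At E11.5 the median within those clusters was −0.24 and Phgdh was at −0.55. In G1 cells alone, the E10.5 median was −1.31 and 5 members were called lower, where 8.98% of all genes were lower and 13.1% higher.

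E11.5 was compared with E10.5 to ask how the genes moved with stage. In HE, the median log2 ratio, E11.5 over E10.5, was −0.45, with medians of −0.48 in GL58 and −0.54 in GL78. Bcat1 was called lower at E11.5 (−2.62 ± 0.21), 1 of 8 members, against 1.99% of all genes lower and 2.48% higher. Phgdh was lower in both batches but short of 2-fold in GL58, at −0.97 there and −2.13 in GL78. Mthfd1 (−0.52 ± 0.07), Shmt2 (−0.37 ± 0.17) and Psat1 (−0.36 ± 0.02) were lower in both batches by less than 2-fold. Shmt1, Mthfd2 and Psph differed in direction between the batches. In G1 cells alone, which only GL78 allowed, the median was −0.13 and Phgdh stood at −1.82. Psat1 was higher at E11.5 in these G1 cells, at 0.56, against −0.37 in all cells of GL78. Its direction thus depended on which cells were taken. Bcat1, Psph and Shmt1 stayed below 0 in G1 cells, as did Phgdh. Megakaryocyte markers summed to 36.4 to 3173 CPM at E11.5 and 1039 to 4194 CPM at E10.5, and their part in the ratios was not tested.

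In GFI1+ IAHC, compared in GL78 only, all 8 genes were lower at E11.5, with a median of −0.63. Phgdh (−1.74), Psph (−1.16) and Psat1 (−1.01), which make up the serine pathway, were called lower, 3 of 8, against 2.48% of all genes lower and 8.79% higher. Bcat1 stood at −0.70, Mthfd1 and Shmt2 at −0.56, Shmt1 at −0.48 and Mthfd2 at −0.33. In clusters 0, 1, 3 and 5 alone the median was −0.83 and Phgdh was at −0.96, and in G1 cells alone the median was −1.09 and Phgdh was at −1.88. G1 cells made up 57.3% of this pool at E11.5 and 27.6% at E10.5. Macrophage markers moved the other way, with 7 of 9 called higher at E11.5 (237.3 against 72.3 CPM in sum). Without clusters 6 to 10 the median was −0.81.

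GFI1+ and GFI1- IAHC of E11.5 were compared because the reporter divides the cKIT+ cells. The median log2 ratio was 0.14, while the medians within batches were 0.060 in GL53 and 0.075 in GL78, and no member was called of 7 that reached 10 CPM, against 2.25% of all genes. Shmt1 and Mthfd1 were both at 0.43 ± 0.11, higher in GFI1+ cells in both batches. Psph was at −0.43 ± 0.43 and Phgdh at −0.12 ± 0.38. In G1 cells alone the median was 0.92 and Phgdh was at 1.03. Of the macrophage markers, 8 of 10 were called lower in GFI1+ cells, at 88.5 to 237.3 CPM against 374.3 to 832 CPM in GFI1- cells. Mesenchyme markers summed to 35.01 to 54.3 CPM and 54.3 to 3169 CPM, and without clusters 6 to 10 the median was 0.39.

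The next comparison was between the cell cycle phases that the authors had assigned with Cyclone. Phases were compared within each group and batch with at least 10 cells of both, which gave 3 pools for S and 9 for G2M. Phases were assigned from the expression of these cells, so differences between them are descriptions, and sums of cell cycle genes cannot check the labels. Mitosis genes summed to 4358 to 8501 CPM in G2M pools and 270 to 822 CPM in G1 pools. S phase genes summed to 6274 to 7112 CPM in the S pools and 1607 to 4588 CPM in the G1 pools.

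All 8 genes were on average higher in S than in G1, with a median log2 ratio of 1.03 ± 0.53 (SD, 3 pools). This rests on few pools, and in E11.5 GFI1- IAHC of GL53 cluster 6 held 34.1% of the kept cells. With at least 5 cells a pool, which gave 6 pools, Bcat1 was at −0.15 ± 1.39 and Shmt2 at 0.09 ± 0.77. Psph was then at 0.12 ± 1.12, Phgdh at 0.76 ± 0.70, Psat1 at 1.13 ± 0.72 and Shmt1 at 1.52 ± 0.84. Shmt1, which supplies the carbon for thymidylate in the cytosol, stood at 104.1 CPM in G1 and 201.2 in S in E10.5 GFI1+ IAHC of GL78, at 29.95 and 100.7 in E10.5 HE of GL78, and at 23.8 and 153.2 in E11.5 GFI1- IAHC of GL53. S was above G1 in each of them, by 1.77 ± 0.85 on the log2 scale. Phgdh stood at 382.4 and 655, 77.7 and 181.3, and 27.5 and 101.97 CPM in the same pools (1.28 ± 0.54). Mthfd2 varied most between the pools, with 39.9 and 90.7, 23.7 and 33.3, and 6.99 and 80.03 CPM (1.66 ± 1.497).

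Psat1 was at 1.22 ± 1.03, Mthfd1 at 0.84 ± 0.19 and Shmt2 at 0.52 ± 0.42, all above 0 in the 3 pools, whereas Psph (0.64 ± 0.88) and Bcat1 (0.43 ± 0.98) were above 0 in 2 of them. No member reached 2-fold in every pool, where 1.01% of all genes did so upward. Phgdh, Psat1 and Shmt1 reached it in the other pools and missed it in E10.5 GFI1+ IAHC, at 0.77, 0.06 and 0.94, the pool in which their G1 level was the highest of the 3. Without GL78, which leaves the pool of GL53 alone, 6 members were called higher, where 15.9% of all genes were.

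G2M cells were above G1 cells by less, with a median of 0.57 ± 0.50 (SD, 9 pools) and 54 of the 72 ratios above 0. Psat1 was the member above 0 in all 9 pools (0.92 ± 0.52, lowest 0.07). Mthfd2 was at 1.17 ± 0.91 and above 0 in 8 pools, and Shmt2 at 0.52 ± 0.39 and above 0 in 8. Phgdh was at 0.70 ± 1.19 and above 0 in 6, and in E10.5 GFI1+ IAHC of GL78 it was lower in G2M, at 224.4 CPM against 382.4 in G1. Psph was above 0 in 4 pools. No member was called, against 1.15% of all genes upward. In clusters 0, 1, 3 and 5 alone the median was 1.04, over 6 pools.

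**Figure D2:**
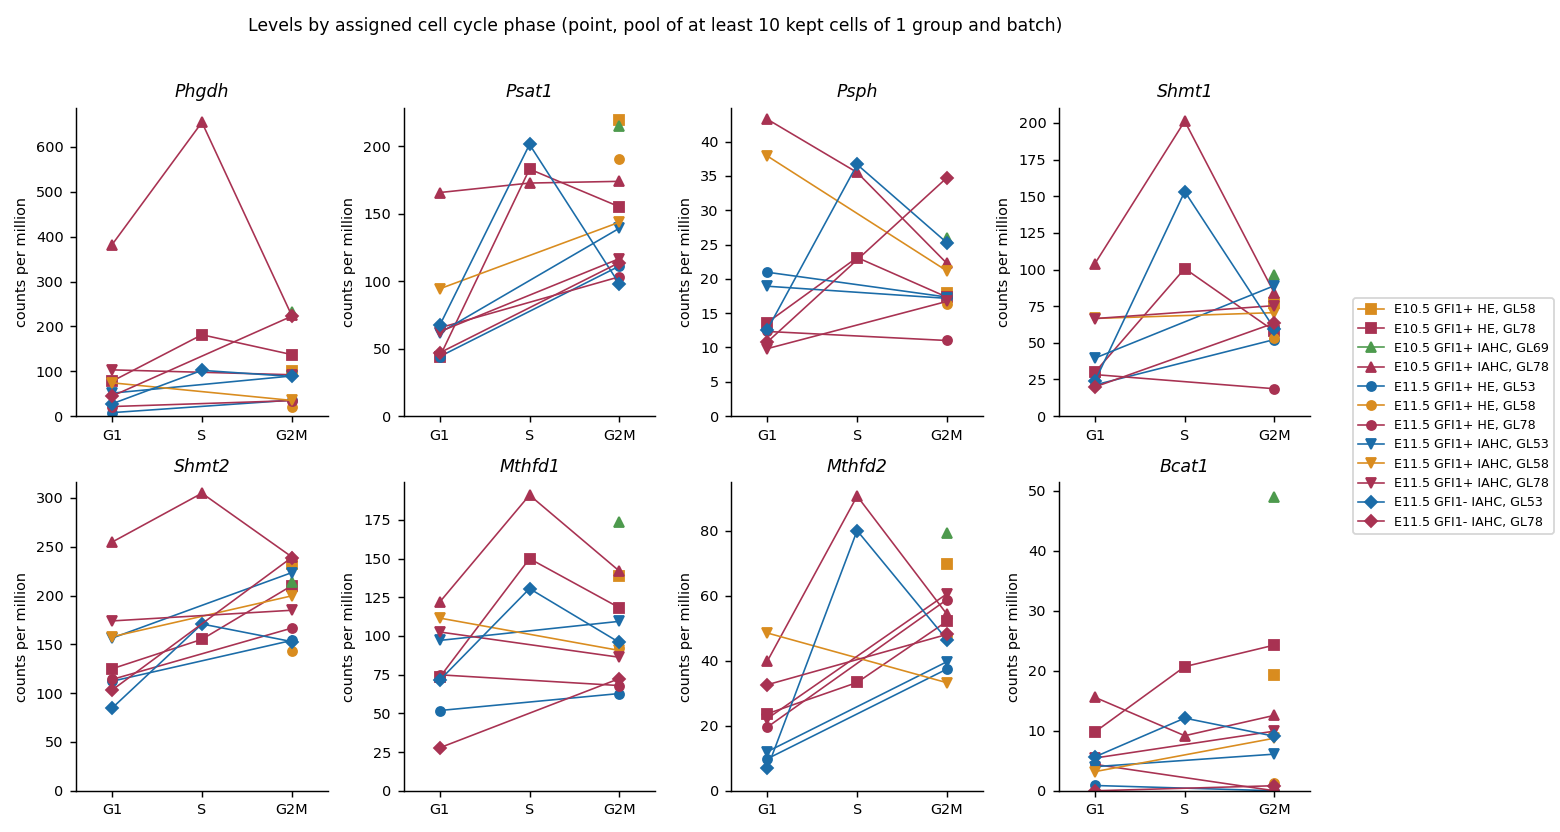
Level of each gene (CPM) in G1, S and G2M cells, with 1 line per group and batch. In the 3 pools with S cells, Shmt1 went from 23.8 to 104.1 CPM in G1 to 100.7 to 201.2 CPM in S, while Psph was at most 43.3 CPM in any pool.

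The last comparison was between the authors' Louvain clusters, which they made after regressing out cell cycle, depth and mitochondrial reads. Cluster 4 is the one they named HSC-primed HE and cluster 2 the one they named HSC. Clusters were formed on the expression of these cells, so differences between them are descriptions. Haematopoietic markers summed to 3186 CPM in cluster 2 and to 88.4 to 163.2 CPM in clusters 0, 1, 3, 4 and 5. Arterial markers summed to 5846 CPM in cluster 4 and 291.9 CPM in cluster 2. General endothelial markers summed to 6172 to 8187 CPM in clusters 0, 1, 3 and 5, 10415 CPM in cluster 4 and 1164 CPM in cluster 2.

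Phgdh was highest in cluster 2. Its level there was 244.5 CPM in GL53 (237.3 to 251.97) and 538 CPM in GL78 (532 to 544). Cluster 4 had 4.36 CPM (3.502 to 5.35) and 33.0 CPM (31.01 to 35.2) in those batches. Clusters 0, 1 and 3 stood between 9.79 and 106.4 CPM in any batch and cluster 5 between 35.7 and 184.4 CPM. Both batches of cluster 2 were therefore above every batch of clusters 0, 1, 3, 4 and 5. The median cell of cluster 2 had 337.4 CPM, that of cluster 5 65.6 CPM, and that of clusters 0, 1, 3 and 4 had 0. With 50000 counts a cell, 90.8% of cluster 2 cells and 13.2% of cluster 4 cells had a Phgdh read.

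Cluster 2 held 14.1% of the kept cells and 13.7% of all counts, but 57.1% of the Phgdh counts. Its shares of the other members' counts were 25.4% for Shmt1, 25.2% for Psph, 23.4% for Shmt2, 23.05% for Mthfd1, 21.2% for Psat1, 19.02% for Bcat1 and 17.1% for Mthfd2. Cluster 4 held 9.52% of all counts and 1.57% of those of Shmt1, 1.66% of Phgdh, 2.18% of Psat1, 3.46% of Mthfd2, 3.58% of Mthfd1, 4.43% of Shmt2 and 8.03% of Psph. Median depth per cell was 715266 counts in cluster 2 and 718575 in cluster 4.

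The other members were also higher in cluster 2 than in cluster 4. Psat1 stood at 150.9 and 167.1 CPM in cluster 2 (GL53 and GL78) and at 16.6 and 35.1 CPM in cluster 4, and Shmt1 at 111.5 and 107.9 CPM against 1.69 and 18.9 CPM. Shmt2 stood at 301.8 and 286.4 CPM against 71.04 and 92.5 CPM, and Mthfd1 at 131.8 and 161.96 CPM against 19.7 and 54.7 CPM. In both batches cluster 2 was above cluster 4 for these 4 genes. Mthfd2 stood at 36.9 and 48.1 CPM in cluster 2 and at 20.4 CPM in cluster 4 of GL78, and had 0 reads in cluster 4 of GL53, where counting error allows up to 0.179 CPM. Bcat1 stood at 3.81 and 17.7 CPM in cluster 2 and at 0 reads and 1.10 CPM in cluster 4.

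Cluster 5 came close to cluster 2, or above it, for Mthfd1, Mthfd2 and Psat1 but not for Phgdh or Psph. In GL53, GL69 and GL78 it had 135.5, 174.3 and 138.1 CPM of Mthfd1, 58.2, 107.7 and 61.6 CPM of Mthfd2, and 130.4, 258.3 and 159.4 CPM of Psat1. Mthfd2 was higher in each batch of cluster 5 than in either batch of cluster 2. Of its 57 cells, 25 were in S and 18 in G1. Psph stood at 12.9, 21.4 and 14.9 CPM there, against 34.2 and 38.3 CPM in cluster 2. Bcat1 was also relatively high in cluster 5, with 15.3% of its counts beside 8.31% of all counts. In cluster 2 these shares were 19.02% and 13.7%.

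Taken as ratios, cluster 2 over cluster 4, the median of the 8 was 2.69 ± 0.69 (SD, 2 batches), and 7 of 8 members were called higher, where 24.3% of all genes were called in either direction (1217 higher and 1345 lower of 10554). Phgdh was at 4.75 ± 1.08, Shmt1 at 3.92 ± 2.07, Psat1 at 2.66 ± 0.63, Mthfd1 at 2.11 ± 0.80 and Shmt2 at 1.85 ± 0.32. Psph, at 0.93 ± 0.66, was above 0 in both batches without reaching 2-fold in each. The ratio of Mthfd2 (3.22 ± 2.86) and of Bcat1 (2.71 ± 0.63) depends on the 1 CPM added, since cluster 4 had 0 reads of both in GL53. Bcat1 reached the 10 CPM minimum on the cluster 2 side only. Its ratio also rests on few cells, and without the cell with the most reads it was 1.94 ± 2.74.

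Against clusters 0, 1, 3 and 5, which the authors described as alike, cluster 2 had a median of 0.80 ± 0.23. Phgdh (3.30 ± 0.88) and Psph (1.27 ± 0.12) were called higher, 2 of 8, against 10.8% of all genes higher and 9.74% lower. Shmt1 was at 1.22 ± 0.48, close to Psph but without a call, Shmt2 at 0.84 ± 0.36, Psat1 at 0.75 ± 0.33, Mthfd1 at 0.67 ± 0.02 and Mthfd2 at 0.44 ± 0.48. Bcat1 was at 0.66 ± 0.13, and at −0.47 without the cell with the most reads. Of the genes called in this comparison, 52.5% were higher with total counts as the scale and 43.2% with TMM scaling, which moved the median log2 ratio of all measured genes from 0.14 to −0.04. Cluster 4 lay below the same clusters with a median of −1.69 ± 0.47. Mthfd2 (−2.78 ± 2.38), Shmt1 (−2.70 ± 1.59), Psat1 (−1.92 ± 0.30) and Phgdh (−1.45 ± 0.21) were called lower, 4 of 7 that reached 10 CPM, against 4.85% of all genes lower and 7.96% higher. Psph was the exception on average and stood at 0.34 ± 0.55, but its batches differed, at 0.72 in GL53 and −0.05 in GL78. With at least 5 cells a pool Psph was at −1.29 ± 2.85 (SD, 3 batches), and in G1 cells alone at 0.67 ± 0.01. For Phgdh, cluster 1 alone was as low as cluster 4, at 18.96 against 19.5 CPM summed over batches.

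Phase differed between the clusters although it had been regressed out before clustering. Of 76 cells of cluster 4, 62 were in G1 (81.6%) and 1 in S, and in cluster 2, 49 cells were in G1 (44.95%) and 19 in S (17.4%). In G1 cells alone, Phgdh stood at 236.4 CPM in cluster 2 and 3.78 in cluster 4 in GL53, and at 483 and 28.5 in GL78. The mean log2 ratio was 4.83, beside 4.75 in all cells. Psat1, Shmt1, Shmt2 and Mthfd1 were also more than 2-fold higher in both batches. Mthfd2 (0.92 in GL78), Bcat1 (0 reads on both sides in GL53) and Psph (0.51 in GL53) were not. Against clusters 0, 1, 3 and 5, Mthfd1 (−0.23) and Bcat1 (−1.89) were lower in G1 cells of cluster 2 in GL53. The other members stayed higher in both batches. Cluster 4 against clusters 0, 1, 3 and 5 was also uneven in G1. Phgdh was at 3.78 against 10.3 CPM in GL53 but at 28.5 against 27.2 CPM in GL78. In this setting 2 members were called lower instead of 4, where 5.49% of all genes were. Psat1 (−1.71 and −2.29) and Shmt1 (−3.10 and −1.83) were the ones that stayed lower in both batches by more than 2-fold.

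Phgdh also differed by stage within cluster 2. In cluster 2, E10.5 GFI1+ IAHC of GL78 had 652 CPM (36 cells) and E11.5 GFI1+ IAHC had 335.2 CPM in GL78 (15 cells) and 258.6 CPM in GL53 (22 cells). In cluster 4, E10.5 HE of GL78 had 31.98 CPM (26 cells) and E11.5 HE of GL53 3.66 CPM (32 cells), which differ in both stage and batch. All 3 pools of cluster 2 were above every pool of the other clusters with at least 10 cells, which reached 142.2 CPM.

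Between clusters 2 and 4, detection in single cells followed the sums. At 50000 counts the median cell of cluster 2 had a read of 6 of the 8 genes, as did that of cluster 5, and the median cell of cluster 4 had 1. Phgdh, Psat1 and Psph were detected together in 46 cells of cluster 2 (42.2%, exact 95% interval 32.8 to 52.04%) and in 2 of 76 of cluster 4 (2.63%, 0.32 to 9.18%). In the other clusters this share ran from 7.59% (cluster 1) to 33.3% (cluster 6). It did not follow the sums there. Cluster 6 was above cluster 5 (24.6%), while the 8 genes summed to 537 CPM in cluster 6 and 837 CPM in cluster 5. None of the 8 was detected in 14 of 76 cells of cluster 4 (18.4%) and in 0 cells of cluster 2.

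Other clusters led for other members. Shmt1 was highest in cluster 8, at 275.7 CPM, where Mthfd2 was also highest at 93.6 CPM. Germ-cell markers summed to 3027 CPM there, the most of any cluster. Bcat1 was highest in cluster 6 (34.6 CPM), which led for mesenchyme markers (7916 CPM), where Shmt2 was at its lowest (74.9 CPM). Psat1 was highest in cluster 7, at 193.6 CPM. Phgdh was highest in cluster 2, followed at 154.2 CPM by cluster 10, whose macrophage markers summed to 9901 CPM. Cluster 10 held only 11 cells, fewer than 10 in any batch, so no batch level is given for it.

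**Figure D3:**
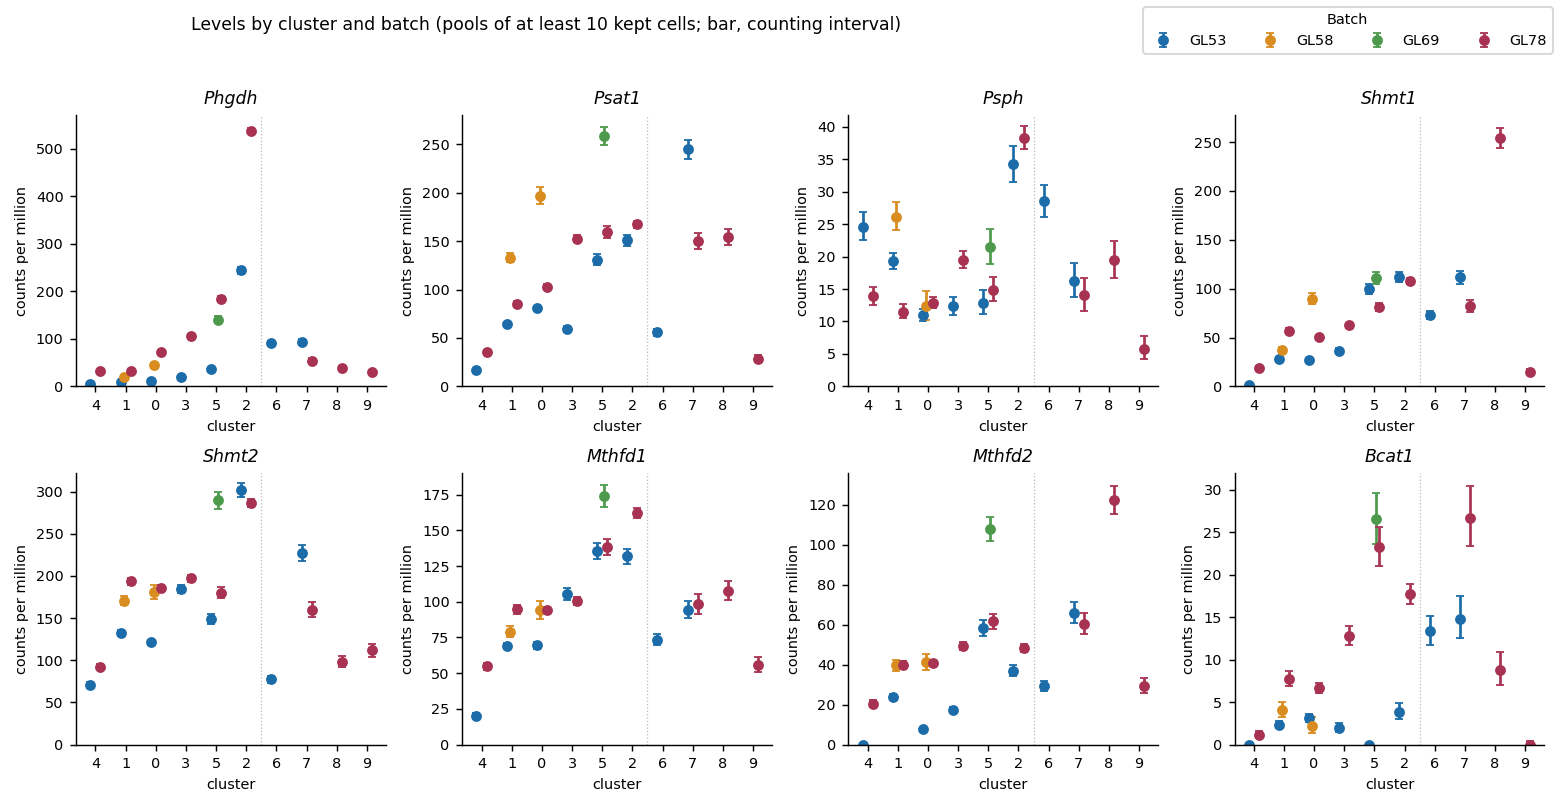
Level of each gene (CPM) by Louvain cluster, with 1 point per batch and 95% counting intervals. Phgdh stood at 244.5 and 538 CPM in cluster 2 and at 4.36 and 33.0 CPM in cluster 4, while Psph stood at 34.2 and 38.3 CPM in cluster 2 and at 24.6 and 13.9 CPM in cluster 4.

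Related pathways were read from lists of genes. Between clusters 2 and 4, purine synthesis, which uses the formyl groups that MTHFD1 makes, had 6 of 11 measured genes called higher in cluster 2 and 0 lower, with a median log2 ratio of 1.34. Prps1 (2.62) and Prps2 (2.45), which make the ribose phosphate donor, and Gart (2.51), which carries several steps of the purine ring, were the highest. Of the other folate and glycine cleavage genes, 2 of 14 were called higher and 0 lower (median 0.46), namely Mthfd1l (3.75), the mitochondrial formate-producing enzyme, and Mtrr (2.88), which reactivates methionine synthase. Of the transporters of serine, glycine and folate, 3 of 8 were called higher and 1 lower (median 0.54). They were the neutral amino acid carrier Slc1a5 (3.39), the mitochondrial serine carrier Sfxn1 (2.24) and the folate carrier Slc19a1 (1.13), with the sideroflexin Sfxn3 lower (−1.98).

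ATF4 is the factor that cells use to raise amino acid synthesis under shortage. Of the ATF4 amino acid response genes, 1 of 14 was called higher in cluster 2 over cluster 4, Cebpb (4.31), with a median of 0.40, and Asns, asparagine synthetase, was at 1.31 without a call. Of the cytosolic aminoacyl-tRNA synthetases 0 of 12 were called (median 0.33). Of the branched-chain amino acid genes 1 of 13 was, the leucine carrier Slc7a5 (3.87), and of the methionine cycle genes 1 of 4, Ahcy (1.88). The list of MYC family genes and their targets had 14 of 15 called higher (median 2.03), and the S phase list 1 of 19 (median 1.79). All of these lists stand beside the 1217 of 10554 genes called higher.

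Cluster 4 against clusters 0, 1, 3 and 5 gave 2 of 11 purine genes called lower (Prps1 at −2.58 and Gart at −2.03, median −0.79). Mthfd1l (−2.66), Mtrr (−2.53), Sfxn1 (−1.54), Slc7a5 (−1.95) and Asns (−2.74) were called lower and Sfxn3 (2.25) higher. Of the list of MYC family genes and their targets, 10 of 14 were called lower (median −1.51), and 1 of 19 S phase genes (median −1.46). Cluster 2 against clusters 0, 1, 3 and 5 gave fewer calls, with Pfas (1.29) the purine gene called and Slc7a5 at 1.92, and 0 of the other folate genes were called (median 0.17). Of all genes, 4.85% were lower and 7.96% higher in the first of these comparisons, and 10.8% higher and 9.74% lower in the second.

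Over the phases, the purine genes had a median of 0.63 in S over G1, and Ppat (1.09), the first committed enzyme of that pathway, was called higher. Tyms, which uses the folate carbon to make thymidylate, was at 0.91 without a call. In the sorted groups few of the listed genes were called. Mthfd1l was lower in GFI1+ IAHC at E11.5 than at E10.5 (−1.11), as were Stc2 (−1.36), Vldlr (−1.02) and Nupr1 (−4.23) of the ATF4 list, with Pycr1 (1.57) higher. Slc19a1 (−1.17) and Slc7a5 (−1.38) were lower in HE than in GFI1+ IAHC at E10.5. Gldc of the glycine cleavage system was lower in HE than in GFI1+ IAHC at E11.5 (−3.57), where germ-cell markers were also lower, 6 of 7, at 44.8 to 83.7 against 126.8 to 765 CPM. Of all genes, 1.01% were called higher in S over G1. For stage in GFI1+ IAHC, 2.48% were lower and 8.79% higher. In HE over GFI1+ IAHC, 1.99% were lower at E10.5 and 0.917% at E11.5.

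**Figure D4:**
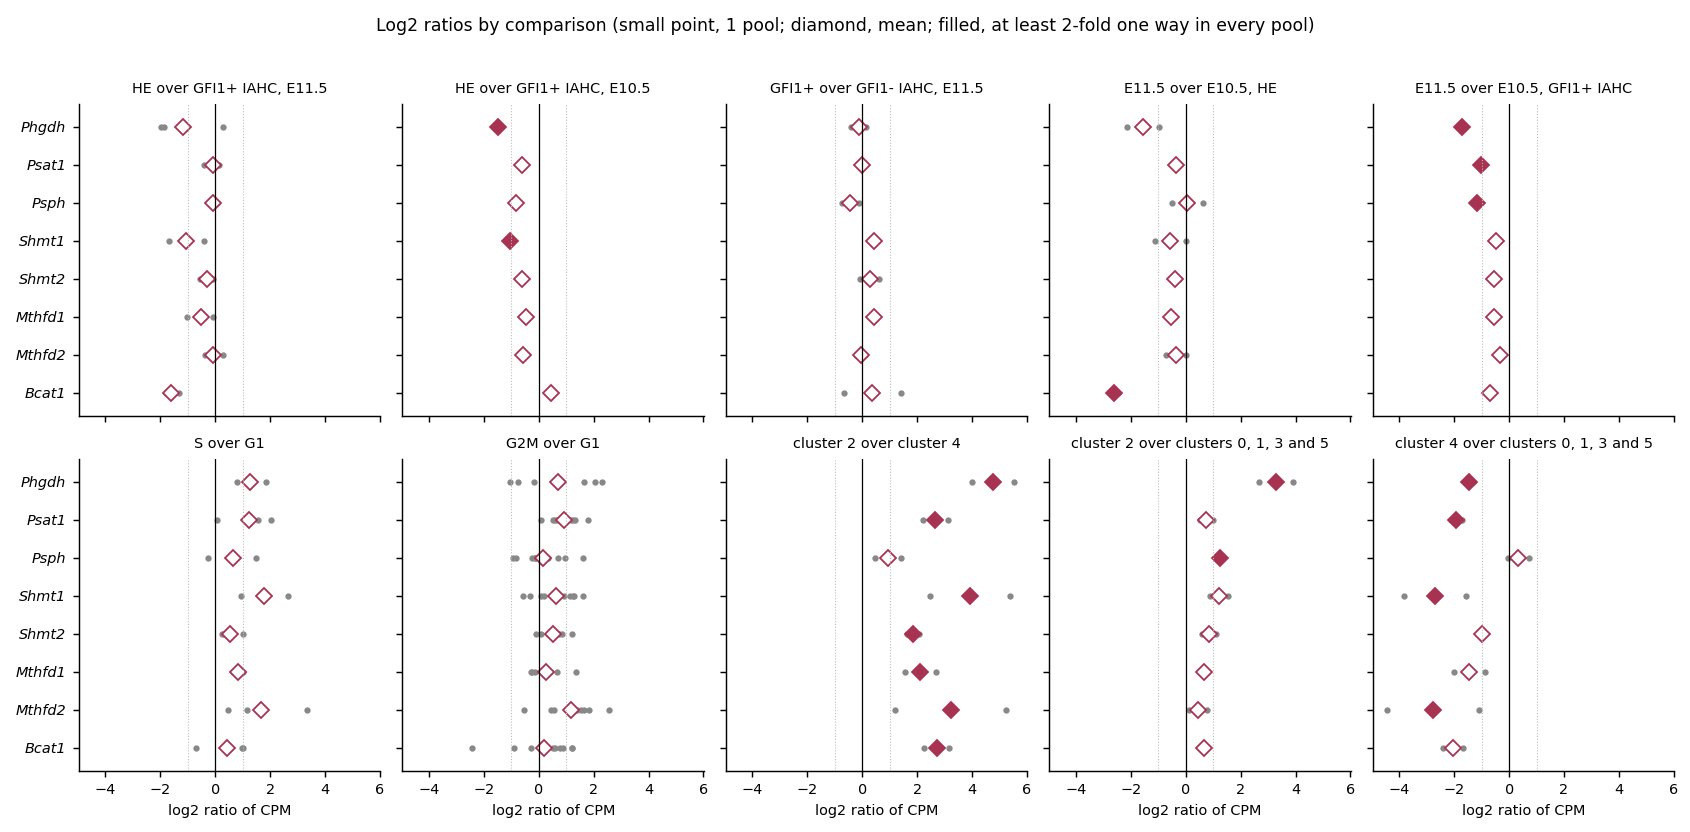
Log2 ratios of CPM (1 CPM added) of the 8 genes in the 10 comparisons. Small points are batches or pools, diamonds their mean, filled where the gene was called; 7 of 8 diamonds are filled in cluster 2 over cluster 4, and Phgdh is farthest from 0 there at 4.75.

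Across the 11 pools of a group and batch from batches with more than 1 pool, with log2 levels centred within batch, the members were mostly alike in pattern. Of their 28 pairs, 20 had a Pearson r over 0.5, and 1 was below 0, with a median of 0.67. Psat1 and Mthfd1 were the most alike (0.86), followed by Phgdh and Shmt1 (0.84), and Psph was the least like the rest, with r of −0.06 with Mthfd2 and 0.01 with Bcat1. These pools share batches and composition, and r describes them only. Pairs of all genes were not counted, so whether the members are more alike than other genes is not known.

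Among 9308 genes, those most like Phgdh were Pla2g4a (0.98), Eif5 (0.97) and Gfer (0.96). For Psat1 they were Mrpl18 (0.97), Adsl (0.96) and Psmd8 (0.96), and for Psph Prmt6 (0.91), Poldip3 (0.90) and Srsf1 (0.89). Shmt1 was most like Fam107b (0.99), Kat2a (0.98) and Virma (0.98), and Shmt2 most like Hspa8 (0.95), Psmg3 (0.94) and Taf10 (0.92). For Mthfd1 they included Isg20l2 (0.97) and Cenpn (0.97), for Mthfd2 Tgs1 (0.96), Dnmt3a (0.94) and Usp14 (0.94), and for Bcat1 Traip (0.97), Alg11 (0.96) and Gins3 (0.94). Adsl, of the purine list, was the only pathway gene among them, and no member was among the 3 most like another.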

How the data were processed

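Each cell was 1 paired-end Smart-Seq2 library. The count values were deposited by the authors as raw read counts per gene, aligned to mm10 (STAR 2.7.3) and counted with HTSeq 0.9.1, per the submitters' processing notes. The sources used here do not give strand setting or duplicate handling. In all it held 46170 rows, 92 of them spike-in controls with 0 reads, and 45229 of 46078 gene rows were matched to a GENCODE M21 symbol, which left 0.0581% of counts unnamed. The mitochondrial fraction (0 to 1) of each cell's counts was deposited by the authors and was not used in any value. From the annotation, the authors' kept cells, Louvain clusters (made with Scanpy 1.4.4) and Cyclone phases were taken, and 18 of its 22 columns and the normalized table were not used.

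The 8 members and the gene lists were chosen with earlier results of these data known. Samples are single cells without a named animal, so each group counted as 1 sample and no test was run. Counts were summed per group, phase or cluster within batch (at least 10 cells) and scaled to CPM over all genes; TPM divides by exon length. Log2 ratios carried a pseudocount of 1 CPM and were averaged over batches with equal weight. A gene was measured at 10 CPM or more on either side and called at 2-fold or more in 1 direction in every batch. All members were named whatever their values, up to 3 genes at each end of a pathway list, genes called in those lists, and the 3 genes of highest Pearson r with a member among genes of at least 10 CPM with a symbol that is not a predicted name. Some genes that meet this rule are not reported here. Shares of cells used cells thinned to 50000 counts (seed 11; 0 kept cells were below), with Clopper-Pearson intervals. No doublet caller was run, since cells were sorted singly into wells.

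Alternatives were other pseudocounts, edgeR 4.0.16 TMM and DESeq2 1.42.0 median-of-ratios scaling, single-cell means, thinning, G1 cells only, all sequenced cells, leaving out a batch, clusters 6 to 10 or the cell with the most reads, other minima, and clusters 0, 1, 3 and 5 only, which was added after seeing the data. The scripts were tested on simulated data. Python 3.11.15, numpy 2.4.6, pandas 2.3.3, scipy 1.17.1, matplotlib 3.10.9 and R 4.3.3 were used.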

Additional observations from a re-analysis of the deposited data

Results flagged for a closer look

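Bcat1, the cytosolic branched-chain aminotransferase, differed in direction between the stages when HE was set against GFI1+ IAHC. At E11.5 its log2 ratio was −1.60 ± 0.23 (SD, 3 batches), below 0 in every batch, at 0.578 to 2.38 CPM in HE and 4.42 to 7.51 CPM in GFI1+ IAHC. At E10.5 it was 0.44 in the only batch that could be compared, at 17.7 CPM in HE and 12.8 CPM in GFI1+ IAHC. The difference between the stages was not tested. The E11.5 levels were below 10 CPM. Without clusters 6 to 10 the ratios were −0.83 and 0.55, and in G1 cells alone they were −0.84 and −0.62, so at E10.5 the direction in G1 cells was the opposite of that in all cells.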

How the results depend on the processing

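Of the recomputed medians of the 8 genes, 32 moved by more than the SD over batches, or, for the 2 comparisons with 1 batch, by more than a 95% counting interval, and 0 changed direction, and of 992 values of single genes 814 stayed within that limit, with 0 called values reversed. With G1 cells only, the medians that moved were −1.09 and −0.13 for E11.5 over E10.5 in GFI1+ IAHC and HE, 0.92 for GFI1+ over GFI1- IAHC and −1.31 for HE over GFI1+ IAHC at E10.5. With clusters 0, 1, 3 and 5 only they were −0.83, −0.74, 0.21 and −0.030 in that order, and S over G1 gave no value. Without clusters 6 to 10 the median was −0.81 for stage in GFI1+ IAHC, 0.39 for GFI1+ over GFI1- IAHC and −0.54 for HE over GFI1+ IAHC at E10.5. Thinning gave −0.60 for stage in HE, 0.11 for GFI1+ over GFI1- IAHC and −0.65 for HE over GFI1+ IAHC at E10.5, and single-cell means gave 0.23 and −0.64 for the last pair. Without the cell with the most reads, the medians were −0.54 (stage in HE), 0.19 (GFI1+ over GFI1- IAHC) and −2.35 (cluster 4 over clusters 0, 1, 3 and 5). The small median of GFI1+ over GFI1- IAHC, 0.14, also moved to 0.17 with TMM scaling, 0.18 with median-of-ratios scaling, 0.24 with all sequenced cells, 0.10 with 5 CPM added and 0.0075 with members at 10 CPM or more. Cluster 2 over cluster 4 moved to 3.47 with 0.1 CPM added. Leaving out 1 batch gave −0.54 to −0.48 for stage in HE, 0.060 to 0.075 for GFI1+ over GFI1- IAHC, 1.92 to 2.89 for cluster 2 over cluster 4, 0.72 to 1.04 for cluster 2 and −1.86 to −1.20 for cluster 4 over clusters 0, 1, 3 and 5. It gave −0.59 to −0.23 for HE over GFI1+ IAHC (E11.5), 0.83 to 1.52 for S over G1 and 0.31 to 0.70 for G2M over G1.

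The number of members called moved by over 1.5 times in 28 recomputations. The share of all genes called moves with such settings too. For S over G1 it went from 1.01% higher to 15.9% higher without GL78. Shares of all genes were taken only for the settings where they are given above, so nothing is read about the members from the counts below. At E11.5, HE over GFI1+ IAHC, it went from 0 to 1 in G1 cells or with no CPM minimum and to 2 without GL58. At E10.5 it went from 2 to 5 in G1 cells or with a 1.5-fold limit, to 0 in clusters 0, 1, 3 and 5, and to 1 with 5 CPM added, single-cell means, thinning or without clusters 6 to 10. For stage in HE it went from 1 to 2 with median-of-ratios scaling, thinning, clusters 0, 1, 3 and 5, a 1.5-fold limit or without the top cell, and to 3 without GL58, and in GFI1+ IAHC from 3 to 1 with 5 CPM added. S over G1 went from 0 to 1 with TMM or median-of-ratios scaling or thinning, to 3 with a 1.5-fold limit and to 6 without GL78, and G2M over G1 to 1 in clusters 0, 1, 3 and 5. Cluster 2 over clusters 0, 1, 3 and 5 went from 2 to 1 without the top cell or with 5 cells a pool, 4 without GL78 and 5 with a 1.5-fold limit, and cluster 4 from 4 to 2 in G1 cells.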
